A study of Mus musculus with 15 samples.

Results

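Prostaglandin synthesis and receptor genes were followed in JS1, a line of hepatic stellate cells from mouse, with and without extra XPO4 and with and without TGFβ. The genes are 10 of the 38277 in the tables, taken by symbol: Ptgs1, Ptgs2, Ptges, Ptges2, Ptges3, Ptgis, Ptger1, Ptger2, Ptger4 and Hpgd. There were 15 RNA sequencing libraries in 4 groups: 4 of XPO4-overexpressing cells with TGFβ, 4 of empty-vector cells with TGFβ, 3 of XPO4-overexpressing cells at baseline and 4 of empty-vector cells at baseline. All groups share the genotype of the line, TLR4-/- mouse stellate cells that express wild-type TLR4, so every library is from the same modified line. The sources used here give neither the dose and duration of TGFβ nor the species of the XPO4 construct. The design asks what XPO4 overexpression changes relative to the empty vector in each treatment.

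Prostaglandins are lipid mediators made from arachidonic acid, which phospholipases release from membranes. The cyclooxygenases, encoded by Ptgs1 and Ptgs2, turn it into an unstable intermediate, and terminal synthases then form the final products, among them prostaglandin E and prostacyclin. Ptgs1 is known as the constitutive enzyme and Ptgs2 as the one that cytokines and growth factors induce. Prostaglandin E signals through the EP receptors (the Ptger genes) and is inactivated inside cells by the dehydrogenase that Hpgd encodes. Activated stellate cells are a known source of prostaglandins in the liver.

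The promoter windows of both cyclooxygenase genes are shown because Ptgs2 was the member that TGFβ changed and Ptgs1 is its constitutive counterpart. They run from 250 bases before to 50 bases after the annotated start, 5′ to 3′ on the plus strand, and come from RefSeq (GRCm38.p6), whose table held 8 of the 10 members. Ptgs2 is at chr1:150099781-150100080 and Ptgs1 at chr2:36230176-36230475. Capitals mark matches, on either strand, to the core of a cAMP response element, which is CGTCA, to an E-box, which is CACGTG, and to a core bound by the SMAD proteins that mediate TGFβ signals, which is CAGAC.
Ptgs2: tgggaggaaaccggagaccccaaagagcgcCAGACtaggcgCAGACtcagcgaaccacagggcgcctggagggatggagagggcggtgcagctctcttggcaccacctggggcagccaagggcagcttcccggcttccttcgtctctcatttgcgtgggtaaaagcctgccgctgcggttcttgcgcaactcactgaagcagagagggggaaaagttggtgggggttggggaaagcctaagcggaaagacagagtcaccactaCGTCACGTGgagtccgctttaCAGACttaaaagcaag
Ptgs1: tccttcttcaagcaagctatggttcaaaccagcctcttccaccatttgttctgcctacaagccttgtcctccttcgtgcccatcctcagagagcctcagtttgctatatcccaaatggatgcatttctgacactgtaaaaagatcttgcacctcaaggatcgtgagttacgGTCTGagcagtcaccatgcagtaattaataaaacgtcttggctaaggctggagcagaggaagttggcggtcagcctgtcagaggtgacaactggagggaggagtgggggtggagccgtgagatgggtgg
The Ptgs2 window held 3 SMAD cores, 1 cAMP core and 1 E-box, with the last pair overlapping 14 to 22 bases after the start. The Ptgs1 window held 1 SMAD core, on the minus strand, and neither of the others. TATAAA was also searched and matched in neither window. The marked motifs were not particular to Ptgs2. Among the other members, the Ptges3 window held 1 cAMP core and the Ptges2 window 1 E-box and 1 SMAD core. Those of Ptges, Ptger4 and Hpgd held 1 SMAD core each. Of all 32851 windows of 300 bases in the table, 49.6% held at least 1 SMAD core, 20.8% the cAMP core, 7.15% the E-box and 13.6% TATAAA. The motifs were chosen after the values had been seen, and a match describes letters only, not binding.

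Levels are FPKM, the authors' unit of fragments scaled by transcript length and library size, in 1 table per treatment. Library sums ran from 480030 to 526338 FPKM, with 11829 to 11971 genes at 1 FPKM or more. Read depth is not in the tables, but the most common ratio among genes under 0.5 FPKM put the libraries at 0.922 to 1.16 times the depth of empty-vector library 0 at baseline. Xpo4, a nuclear export receptor gene on chromosome 14, measured 15.02, 12.8, 16.2 and 14.5 FPKM in XPO4 cells with TGFβ, against 4.56, 7.16, 8.84 and 8.04 FPKM in empty-vector cells with TGFβ. At baseline it measured 17.4, 14.0 and 15.7 FPKM in XPO4 cells, against 6.83, 9.33, 8.18 and 6.09 FPKM in empty-vector cells, so the construct groups did not overlap in either treatment. Of 10 stellate cell and fibroblast markers, 6 averaged at least 1 FPKM, among them Col1a1, Vim and Des, the last at 0.586 to 3.26 FPKM. Lrat was listed at 0 everywhere, Reln and Hgf stayed under 0.3 FPKM, and Pdgfrb measured 0.133 to 1.25 FPKM. Of 4 mesothelial markers 3 averaged at least 1 FPKM, with Upk3b at 39.8 to 123 FPKM and Msln at 47.8 to 70.2 FPKM. None of 4 hepatocyte and none of 5 endothelial markers averaged 1 FPKM. Of 4 cholangiocyte markers Krt19 and Krt7 did, Epcam was listed at 0, and the list summed to 3.80 to 9.07 and 6.89 to 11.1 FPKM in XPO4 and empty-vector cells with TGFβ, and to 6.22 to 9.01 and 6.23 to 12.2 FPKM in XPO4 and empty-vector cells at baseline. Of the 6 macrophage markers listed, 4 averaged at least 1 FPKM, with Cd14 the highest, while Ptprc and Clec4f, which define blood-derived and Kupffer cells, stayed under 0.1 FPKM. Empty-vector library 2 at baseline stood apart: its median absolute log2 distance to the other empty-vector baseline libraries was 0.200 to 0.218, against 0.142 to 0.154 among those. For XPO4 library 2 with TGFβ the distances were 0.193 to 0.299, against 0.160 to 0.224 among the others of its group, and these ranges overlapped. Nothing states that the libraries came from separate cultures, and the p-values reflect only the spread among them, possibly technical. In bulk RNA, fewer cells of a type and less RNA per cell cannot be told apart.

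TGFβ raised Ptgs2, the inducible cyclooxygenase gene, in cells with either construct, and no other member passed the test. Ptgs2 lies on chromosome 1 from 150100031 to 150108227 on mm10. In XPO4 cells it measured 183.5, 154.1, 222.4 and 162.8 FPKM with TGFβ, against 100.2, 97.4 and 93.9 FPKM at baseline. In empty-vector cells it measured 133, 148, 161 and 133 FPKM with TGFβ, against 74.1, 76.8, 91.1 and 68.7 FPKM at baseline. With either construct, every TGFβ library lay above every baseline library. In XPO4 cells the means were 181 ± 30.4 FPKM with TGFβ and 97.2 ± 3.13 FPKM at baseline (SD, n = 4 and 3), a ratio of 1.86. The difference of log2(FPKM + 1) was 0.87 (SE 0.12, limma adjusted p = 0.000863). In empty-vector cells the means were 144 ± 13.5 FPKM with TGFβ and 77.7 ± 9.58 FPKM at baseline (SD, n = 4 each), a ratio of 1.85. Here the difference was 0.88 (SE 0.11, limma adjusted p = 0.000505). Each adjusted p-value is Benjamini-Hochberg corrected over every gene in the fit.

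TGFβ thus raised 1 and lowered 0 of the 7 members tested with either construct. Of all 11951 genes tested, 1.19% were called higher and 0.577% lower with TGFβ in XPO4 cells (1.77% in all), and 1.24% higher and 0.536% lower in empty-vector cells (also 1.77% in all). The treatments did not overlap for 9.85% of genes in XPO4 cells (5.39% higher, 4.46% lower) and for 7.82% in empty-vector cells (4.25% higher, 3.57% lower). Among the members they did not overlap for Ptgs1 and Ptgs2 in XPO4 cells and for Ptgs2 in empty-vector cells, all higher. By p-value Ptgs2 ranked 41 in XPO4 cells and 24 in empty-vector cells. The call held with each single library omitted and under the other settings tried, with adjusted p-values (limma) up to 0.00668 in XPO4 cells and 0.00305 in empty-vector cells. Without XPO4 TGFβ library 2, which had the highest Ptgs2 level, the difference in XPO4 cells was 0.77 (limma adjusted p = 0.00138). The treatments are in separate tables, so treatment and table cannot be told apart. The mesothelial marker sum was lower in every TGFβ library than in every baseline library of the same construct, while other sums did not move alike. The 4 mesothelial markers summed to 90.4 to 106 FPKM with TGFβ and 119 to 126 FPKM at baseline in XPO4 cells, and to 141.9 to 157.8 FPKM with TGFβ and 182 to 195 FPKM at baseline in empty-vector cells. Wt1, Upk3b and Msln averaged at least 1 FPKM and none of the 4 was at 0 throughout. The 6 macrophage markers in the tables summed to 25.6 to 32.6 FPKM with TGFβ and 29.2 to 34.8 FPKM at baseline in XPO4 cells. In empty-vector cells the macrophage sum was 30.8 to 33.8 FPKM with TGFβ and 27.3 to 29.4 FPKM at baseline. It thus overlapped between treatments in XPO4 cells and was higher with TGFβ in empty-vector cells. The stellate cell and fibroblast sum overlapped with either construct. It was 2374 to 3175 FPKM with TGFβ and 2285 to 2978 FPKM at baseline in XPO4 cells. In empty-vector cells it was 2554 to 3209 FPKM with TGFβ and 2131 to 2961 FPKM at baseline. The part of these markers in the Ptgs2 result was not tested.

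**Figure D1:**
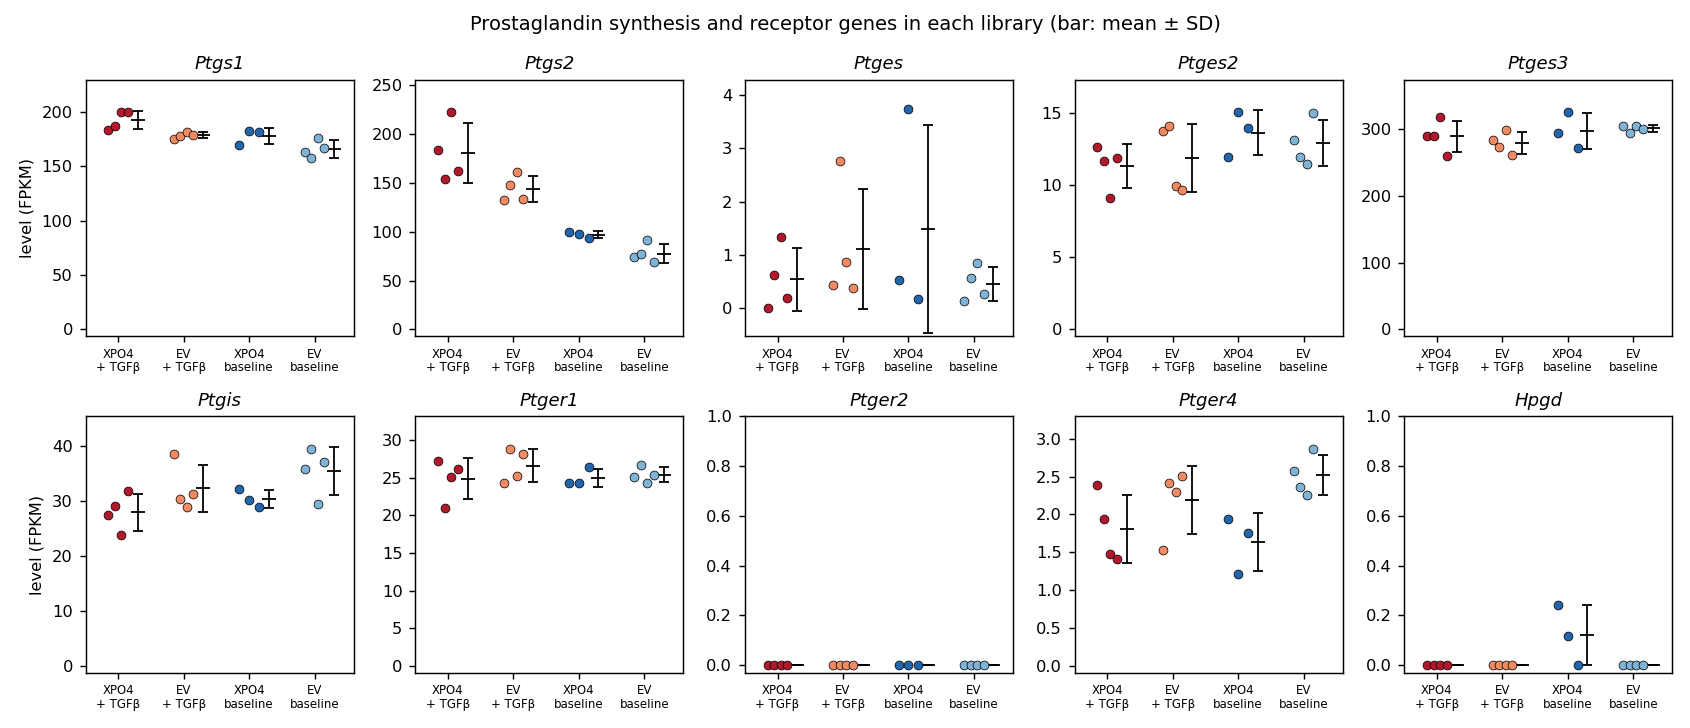
Level in FPKM (vertical axes, linear and separate for each gene) of the 10 genes in each library (points), with the mean ± SD of each group beside them, for XPO4 and empty-vector (EV) cells with TGFβ and at baseline. Ptgs2 was higher in every TGFβ library than in the baseline libraries of the same construct, while Ptger2 was listed at 0 throughout.

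With XPO4 overexpression Ptgs2 had a higher mean than with the empty vector in each treatment, but the difference did not pass the test. With TGFβ the ratio of means was 1.26 and the highest empty-vector library (161 FPKM) lay above the lowest XPO4 library (154.1 FPKM). The difference of log2(FPKM + 1) was 0.32 (95% interval 0.05 to 0.59, unadjusted p = 0.0247, limma adjusted p = 0.246), and 0.21 without XPO4 library 2 (limma adjusted p = 0.333). At baseline the ratio was 1.25 and the groups did not overlap, with 93.9 FPKM the lowest XPO4 and 91.1 FPKM the highest empty-vector value. The baseline difference was 0.33 (95% interval 0.11 to 0.55, unadjusted p = 0.00854, limma adjusted p = 0.13). Without empty-vector library 2, which stood apart, it was 0.40 and passed (limma adjusted p = 0.0167). That library held the highest empty-vector value, 91.1 FPKM, so leaving it out necessarily raised the difference. Of the 7 fits with a single library left out, only 1 passed, and adjusted p-values (limma) ran up to 0.331. Over all genes tested, 3.74% were called with TGFβ (2.89% higher, 0.852% lower) and 3.71% at baseline (2.85% higher, 0.864% lower). The constructs did not overlap for 10.2% of genes with TGFβ (6.03% higher, 4.22% lower) and for 16.2% at baseline (8.23% higher, 7.93% lower). The mesothelial marker sum was lower in every XPO4 library than in every empty-vector library of the same treatment, and its part here was not tested. Among the members limma called 0 in either treatment, with 1 at an unadjusted p under 0.05 with TGFβ (Ptgs2) and 2 at baseline (Ptgs2 and Ptger4). Of all genes, 1676 of 11976 with TGFβ and 1813 of 11926 at baseline had an unadjusted limma p under 0.05.

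No difference in the TGFβ response of Ptgs2 between constructs was detected. The difference between the XPO4 effects with TGFβ and at baseline was -0.01 on the log2 scale (95% interval -0.36 to 0.34, limma adjusted p = 1.0). Limma called 0 of the 7 members tested for such a difference, with 0 at an unadjusted p under 0.05, and 0% of all genes (344 genes at an unadjusted p under 0.05). The means of Ptgs2 were ordered, from high to low, as XPO4 with TGFβ, empty vector with TGFβ, XPO4 at baseline and empty vector at baseline, with overlapping libraries between the first pair only. XPO4 cells with TGFβ averaged 2.33 times the level of empty-vector cells at baseline.

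Ptgs1, the constitutive cyclooxygenase gene on chromosome 2 (36230426 to 36252272), was abundant in every library and was not called in any comparison. It measured 183.9, 187.1, 199.8 and 199.8 FPKM in XPO4 cells with TGFβ, against 176, 178, 182 and 179 FPKM in empty-vector cells with TGFβ. At baseline it measured 169.9, 183 and 181 FPKM in XPO4 cells, against 162.8, 157.3, 176.5 and 166.6 FPKM in empty-vector cells. With TGFβ all XPO4 libraries lay above all empty-vector libraries, but the ratio was 1.08 and the difference of 0.11 did not pass (limma adjusted p = 0.532). The TGFβ differences were 0.11 in XPO4 cells, where the treatments did not overlap, and 0.11 in empty-vector cells, where they did (limma adjusted p = 0.565 and 0.488). The upper 95% bounds of these were 0.24 and 0.22. The FPKM of Ptgs2 relative to Ptgs1 in the same library was 0.937 ± 0.144 in XPO4 cells with TGFβ and 0.805 ± 0.0667 in empty-vector cells with TGFβ (SD, n = 4 each). At baseline it was 0.547 ± 0.0381 in XPO4 cells and 0.468 ± 0.0447 in empty-vector cells (SD, n = 3 and 4). Ptgs2 thus approached the level of Ptgs1 in the TGFβ libraries and exceeded it in 1, XPO4 library 2.

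The terminal synthases were expressed at very different levels, and none was called in any comparison. Ptges3, which encodes the HSP90 co-chaperone p23 that also has prostaglandin E synthase activity, was the most abundant of the 10 genes, at 259 to 325 FPKM over the 15 libraries. Its levels overlapped between groups in every comparison, and its differences ran from -0.11 to 0.05 across the TGFβ and XPO4 effects. A processed pseudogene, Ptges3-ps on chromosome 6, measured 59.8 to 83.5 FPKM, so reads could be shared between the copies and the level of Ptges3 is uncertain. Ptgis, the prostacyclin synthase gene, ranged from 23.8 to 39.5 FPKM. It averaged 28.1 ± 3.37 FPKM in XPO4 cells and 32.4 ± 4.28 FPKM in empty-vector cells with TGFβ (SD, n = 4 each; difference -0.20, limma adjusted p = 0.535). At baseline the means were 30.5 ± 1.63 FPKM in XPO4 cells and 35.5 ± 4.32 FPKM in empty-vector cells (SD, n = 3 and 4; difference -0.21, limma adjusted p = 0.417). The groups overlapped in both treatments.

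Ptges2, the gene of a membrane-associated prostaglandin E synthase, ranged from 9.11 to 15.1 FPKM with overlap in every comparison. The largest of its differences was -0.25 for TGFβ in XPO4 cells (95% interval -0.57 to 0.07, limma adjusted p = 0.645). Ptges, the inducible prostaglandin E synthase that is often paired with Ptgs2, was near the limit of detection. It measured 0, 0.625, 1.34 and 0.190 FPKM in XPO4 cells with TGFβ, against 0.425, 2.77, 0.859 and 0.380 FPKM in empty-vector cells with TGFβ. At baseline it measured 0.533, 3.73 and 0.176 FPKM in XPO4 cells, against 0.123, 0.555, 0.843 and 0.267 FPKM in empty-vector cells. Values spread widely within each group and every pair of groups overlapped. Library 1 was highest among the empty-vector libraries with TGFβ and among the XPO4 libraries at baseline. Ptges averaged 0.855 FPKM over all libraries and was under the minimum mean of 1 FPKM, so it was not tested in the fits. With no minimum its adjusted p-values (limma) ran from 0.738 to 1.0.

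Of the EP receptors, Ptger1 and Ptger4 were detected. Ptger1, a receptor coupled to calcium signalling, measured 21.0 to 28.8 FPKM over the 15 libraries, with overlap in every comparison and differences between -0.10 and 0.06. No source used here says whether counting used strand, and the level of Ptger1 is uncertain for that reason. Ptger4, a receptor that raises cAMP, was low. With TGFβ it measured 2.38, 1.94, 1.48 and 1.42 FPKM in XPO4 cells, against 1.53, 2.42, 2.30 and 2.51 FPKM in empty-vector cells. At baseline it measured 1.95, 1.21 and 1.75 FPKM in XPO4 cells, against 2.57, 2.37, 2.26 and 2.86 FPKM in empty-vector cells. The baseline groups did not overlap, with XPO4 lower, and the TGFβ groups did. Neither difference passed: -0.42 at baseline (95% interval -0.81 to -0.03, unadjusted p = 0.0381, limma adjusted p = 0.285) and -0.19 with TGFβ (95% interval -0.61 to 0.23, limma adjusted p = 0.767).

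Ptger2, the other EP receptor known for raising cAMP, was listed at 0 in all 15 libraries. Hpgd, the gene of the enzyme that inactivates prostaglandins, was listed at 0 in 13 of 15 libraries and at 0.241 and 0.118 FPKM in XPO4 libraries 0 and 1 at baseline. Ptger2, Hpgd and Ptges are the 3 members not tested, and the other 7 passed the minimum in each fit. By mean level the order in empty-vector cells at baseline was Ptges3, Ptgs1, Ptgs2, Ptgis, Ptger1, Ptges2, Ptger4 and Ptges, each separate from its neighbour, with Ptger2 and Hpgd at 0. The order of these 8 genes held in XPO4 cells at baseline, where Ptger4 overlapped Ptges and Ptges overlapped Hpgd (mean 0.120 FPKM). It held also in empty-vector cells with TGFβ. There Ptger4 again overlapped Ptges, but Ptges was separate from Ptger2 and Hpgd, both at 0. In XPO4 cells with TGFβ the ranks were the same, but Ptgs1 overlapped Ptgs2, Ptgis overlapped Ptger1, and Ptges, at 0 in 1 library, overlapped Ptger2. FPKM is scaled by transcript length, but the ranks of Ptges3 and Ptger1 carry the uncertainty of their levels. The median difference of the 7 tested members and of all genes, given in that sequence, was -0.05 and -0.0048 for XPO4 with TGFβ, -0.02 and -0.0044 for XPO4 at baseline, -0.01 and -0.0059 for TGFβ in XPO4 cells, and -0.11 and -0.0090 for TGFβ in empty-vector cells.

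**Figure D2:**
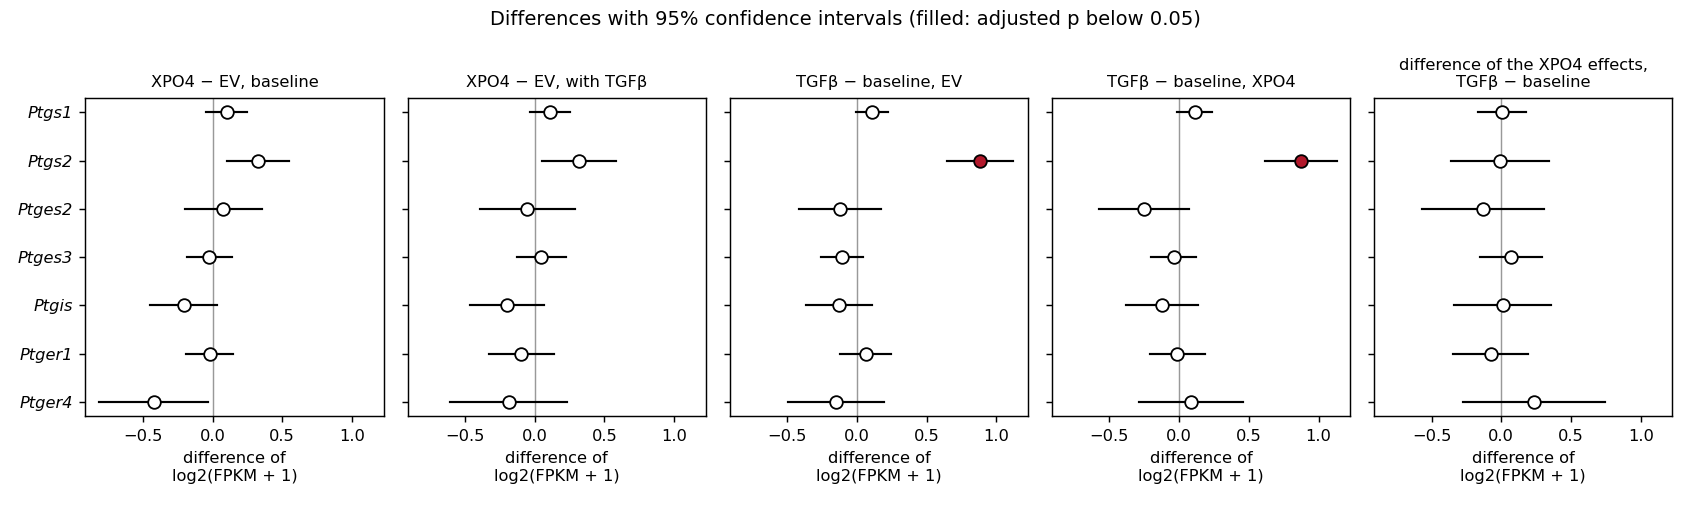
Differences of log2(FPKM + 1) (horizontal axes) for the 7 genes tested, with 95% confidence intervals (lines), in the 4 comparisons between groups and for the difference between the XPO4 effects. Filled points passed an adjusted p of 0.05, and these were Ptgs2 with TGFβ at 0.88 in empty-vector cells and 0.87 in XPO4 cells.

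The 3 genes whose log2(FPKM + 1) followed Ptgs2 most closely over the 15 libraries, among 10371 compared, were Bgn, Thbs1 and Msn. Pearson's r was 0.965 for Bgn, the matrix proteoglycan biglycan, 0.962 for Thbs1, the matricellular protein thrombospondin-1, and 0.962 for Msn, the membrane-cytoskeleton linker moesin. These values are descriptions, since all genes share the libraries and the treatment. Bgn averaged 706 and 616 FPKM in XPO4 and empty-vector cells with TGFβ, and 448 and 414 FPKM in XPO4 and empty-vector cells at baseline. Thbs1 averaged 48.5 and 39.0 FPKM in XPO4 and empty-vector cells with TGFβ, and 19.4 and 14.9 FPKM in the same order at baseline. Msn averaged 606 and 592 FPKM in XPO4 and empty-vector cells with TGFβ, and 462 and 443 FPKM in the same order at baseline. All 3 had the same order of group means as Ptgs2, which is no separate result because they were picked for following it in these libraries.

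**Figure D3:**
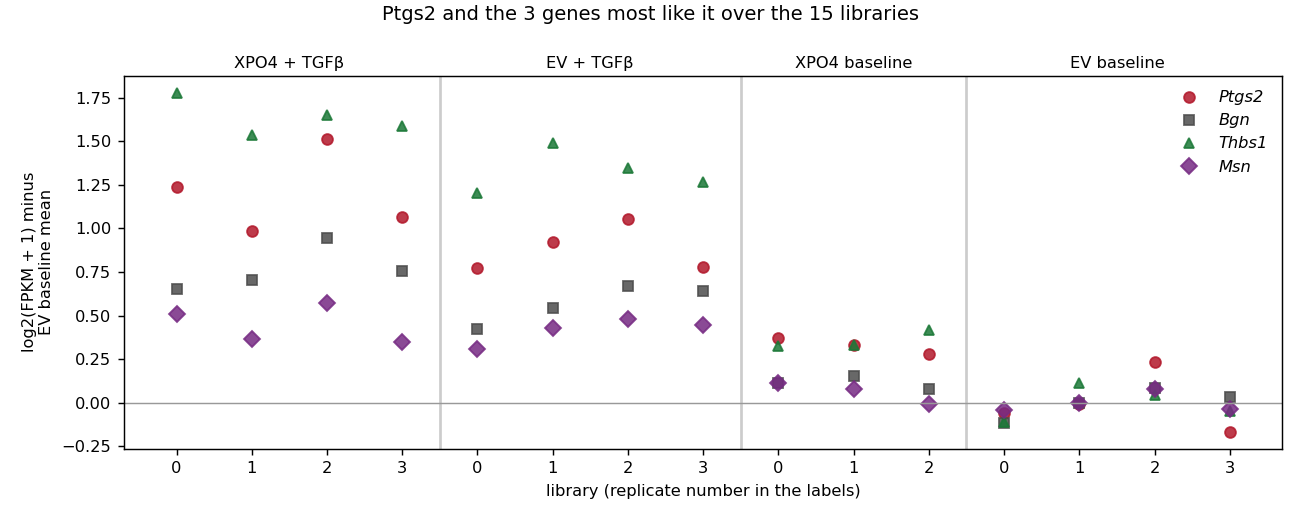
log2(FPKM + 1) minus the mean of the empty-vector baseline libraries (vertical axis) for Ptgs2, Bgn, Thbs1 and Msn in each of the 15 libraries (horizontal axis, by group and replicate number). All 4 genes were higher in the TGFβ libraries than in the baseline libraries of the same construct. Bgn, Thbs1 and Msn were picked for following Ptgs2 in these libraries.

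Of 15 genes of arachidonic acid release, 10 were tested in the TGFβ fits. TGFβ raised 2 and lowered 0 of them in XPO4 cells, where 1.77% of all genes were called. It changed 0 in empty-vector cells (2 at an unadjusted p under 0.05), where the share was also 1.77%. There 1373 of all 11951 genes had an unadjusted limma p under 0.05. Pla2g4a, the cytosolic phospholipase that supplies the cyclooxygenases, measured 33.8, 35.9, 37.7 and 36.8 FPKM with TGFβ in XPO4 cells, against 25.9, 27.0 and 29.7 FPKM at baseline (difference 0.38, SE 0.08, limma adjusted p = 0.0268). In empty-vector cells it measured 37.0, 36.4, 39.5 and 33.74 FPKM with TGFβ, against 30.4, 28.2, 33.69 and 32.7 FPKM at baseline (difference 0.22, limma adjusted p = 0.204). The treatments did not overlap with either construct. The call in XPO4 cells ended without XPO4 baseline library 0 or 1 (adjusted p = 0.156 and 0.119) or XPO4 TGFβ library 1, 2 or 3 (0.0514, 0.06 and 0.0778). Pla2g16, a phospholipase gene, averaged 2.19 ± 0.586 FPKM with TGFβ and 0.449 ± 0.106 FPKM at baseline in XPO4 cells (SD, n = 4 and 3; difference 1.13, SE 0.21, limma adjusted p = 0.00917). Pla2g16 averaged under 1 FPKM in both baseline groups and entered this fit only through the TGFβ libraries, so its call and the count of 2 that includes it are no support for the list. The call ended without XPO4 baseline library 1 (adjusted p = 0.0527). In empty-vector cells it averaged 2.12 ± 0.464 FPKM with TGFβ and 0.942 ± 0.47 FPKM at baseline (SD, n = 4 each), with overlap and no call (limma adjusted p = 0.0998). The difference of the TGFβ effects between constructs was not called for Pla2g4a or Pla2g16 (0.15 and 0.42, limma adjusted p = 1.0 for both). By limma, XPO4 overexpression changed 0 of 10 with TGFβ and 0 of 9 at baseline, with 1 and 2 genes at an unadjusted p under 0.05. With 3.74% and 3.71% of all genes called, counts of 0 among so few say nothing particular of the list. An unadjusted limma p under 0.05 was reached by 1676 of all 11976 genes with TGFβ and 1813 of 11926 at baseline. The list's median difference was 0.10 for TGFβ in XPO4 cells and 0.03 in empty-vector cells, and -0.09 with TGFβ and -0.18 at baseline for XPO4.

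Slco2a1, the prostaglandin transporter that takes the mediators up for degradation, was the gene of the pathway lists called lower with XPO4 overexpression. That call was made with TGFβ only and was not stable. With TGFβ it measured 8.65, 7.30, 6.08 and 6.95 FPKM in XPO4 cells, against 10.997, 9.60, 10.97 and 12.4 FPKM in empty-vector cells. At baseline it measured 12.2, 11.2 and 10.3 FPKM in XPO4 cells, against 13.6, 15.6, 14.6 and 14.1 FPKM in empty-vector cells. The construct groups did not overlap in either treatment, and the lowest values were in XPO4 cells with TGFβ. Of all genes tested, 4.22% with TGFβ and 7.93% at baseline were lower in XPO4 cells without overlap. The XPO4 difference passed with TGFβ (-0.55, SE 0.13, limma adjusted p = 0.0443) but not at baseline (-0.34, limma adjusted p = 0.115), and the difference between these was not called (-0.21, limma adjusted p = 1.0). The call with TGFβ held only without XPO4 TGFβ library 0 and ended without any other of the 8 libraries, with adjusted p-values of 0.0896, 0.0873 and 0.119 without XPO4 libraries 1, 2 and 3, and 0.106, 0.057, 0.105 and 0.145 without empty-vector libraries 0 to 3. TGFβ lowered Slco2a1 in XPO4 cells (-0.57, SE 0.11, limma adjusted p = 0.0146). This call was lost without XPO4 baseline library 0 or 1 (adjusted p = 0.0981 and 0.0697). In empty-vector cells the TGFβ difference was -0.37 (limma adjusted p = 0.115). With the replicate number as a block the XPO4 call with TGFβ ended as well (limma adjusted p = 0.0928). It ended also with no minimum level and with a block of replicates 0 and 1 against 2 and 3 (limma adjusted p = 0.081 and 0.0593).

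Of 13 genes of other prostanoid synthases, reductases and transport, 7 were tested in each fit. For TGFβ, limma called 1 higher and 1 lower in XPO4 cells and 0 in empty-vector cells. For XPO4 it called 1 lower with TGFβ and 0 at baseline. The shares over all genes were 1.77% for TGFβ with either construct, and 3.74% with TGFβ and 3.71% at baseline for XPO4. Counts of 0 or 1 among 7 genes thus say nothing particular of the list. For TGFβ in XPO4 cells 2 of 7 were called, 1 in each direction, and leaving out single libraries gave 0 to 2. The list's median difference was -0.0047 for TGFβ in XPO4 cells and -0.08 in empty-vector cells, and -0.08 with TGFβ and -0.15 at baseline for XPO4. Where limma made 0 calls, 2 genes had an unadjusted p under 0.05 in each case. So did 1373 of all 11951 genes for TGFβ in empty-vector cells and 1813 of 11926 for XPO4 at baseline. The gene that rose was Ptgfrn, a membrane protein named as a negative regulator of the prostaglandin F receptor. It averaged 41.6 ± 3.87 FPKM with TGFβ and 30.3 ± 1.47 FPKM at baseline in XPO4 cells (SD, n = 4 and 3; difference 0.44, SE 0.10, limma adjusted p = 0.0286). In empty-vector cells the means were 45.8 ± 3.41 FPKM with TGFβ and 38.4 ± 4.22 FPKM at baseline (SD, n = 4 each; difference 0.25, limma adjusted p = 0.24). The Ptgfrn call ended without any XPO4 baseline library (adjusted p = 0.126, 0.135 and 0.0581 without library 0, 1 and 2) and without XPO4 TGFβ library 0, 2 or 3 (0.0779, 0.0664 and 0.0921). It ended also with the replicate number as a block (0.0753). Akr1b3, an aldose reductase with prostaglandin F synthase activity, was the most abundant of this list, reaching 437 FPKM, and was not called (chosen after its values were seen).

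Several other prostanoid genes were near 0 FPKM. Ptgds and Hpgds, the prostaglandin D synthases, and Tbxas1, the thromboxane synthase, stayed under 1 FPKM in every library. Of the 6 other prostanoid receptors 5 were in the tables and 0 were tested. Ptger3, Ptgfr and Ptgdr were listed at 0 in all libraries, Ptgir, the prostacyclin receptor, reached 0.379 FPKM, and Tbxa2r, the thromboxane receptor, reached 1.29 FPKM. Of 13 lipoxygenase and leukotriene genes, 9 stayed under 1 FPKM in every library. Lta4h, the leukotriene A hydrolase, averaged 10.4 to 13.1 FPKM by group and was the 1 tested in the TGFβ fits and for XPO4 at baseline. For XPO4 with TGFβ 2 were tested, and the other, Aloxe3, had a difference of -0.62 (limma adjusted p = 0.37). Limma called 0 of this list in any comparison, with 0 at an unadjusted p under 0.05. Of all genes, 1.77% were called for TGFβ with either construct, and 3.74% with TGFβ and 3.71% at baseline for XPO4. Counts of 0 among so few say nothing particular of the list. The genes in this paragraph were named after their values were seen.

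Genes that respond to cAMP, the second messenger of Ptger2 and Ptger4, made up the last list. Of 12 such genes 9 were tested, and TGFβ raised 1 with either construct, while XPO4 changed 0 in either treatment by limma (4 with TGFβ and 1 at baseline at an unadjusted p under 0.05). Over all genes 1.77% were called for TGFβ with either construct, and 3.74% with TGFβ and 3.71% at baseline for XPO4. Counts of 0 or 1 among 9 genes thus say nothing particular of the list. For XPO4, 1676 of all 11976 genes with TGFβ and 1813 of 11926 at baseline had an unadjusted limma p under 0.05. The list's median difference was -0.10 for TGFβ in XPO4 cells and -0.01 in empty-vector cells, and -0.25 with TGFβ and -0.03 at baseline for XPO4. The gene that rose was Nr4a2, an orphan nuclear receptor, with 9.35, 8.80, 9.49 and 7.13 FPKM with TGFβ in XPO4 cells, against 6.45, 4.34 and 4.46 FPKM at baseline. In empty-vector cells it measured 10.1, 12.5, 9.62 and 11.3 FPKM with TGFβ, against 4.9995, 5.81, 5.93 and 5.24 FPKM at baseline. The treatments did not overlap with either construct. The differences were 0.68 in XPO4 cells (SE 0.14, limma adjusted p = 0.017) and 0.86 in empty-vector cells (SE 0.13, limma adjusted p = 0.00184). The call in XPO4 cells ended without XPO4 baseline library 1 or 2 or XPO4 TGFβ library 0 (adjusted p = 0.114, 0.0979 and 0.0575). With TGFβ every XPO4 library lay below every empty-vector library for Nr4a2, but that difference did not pass (-0.29, limma adjusted p = 0.322).

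**Figure D4:**
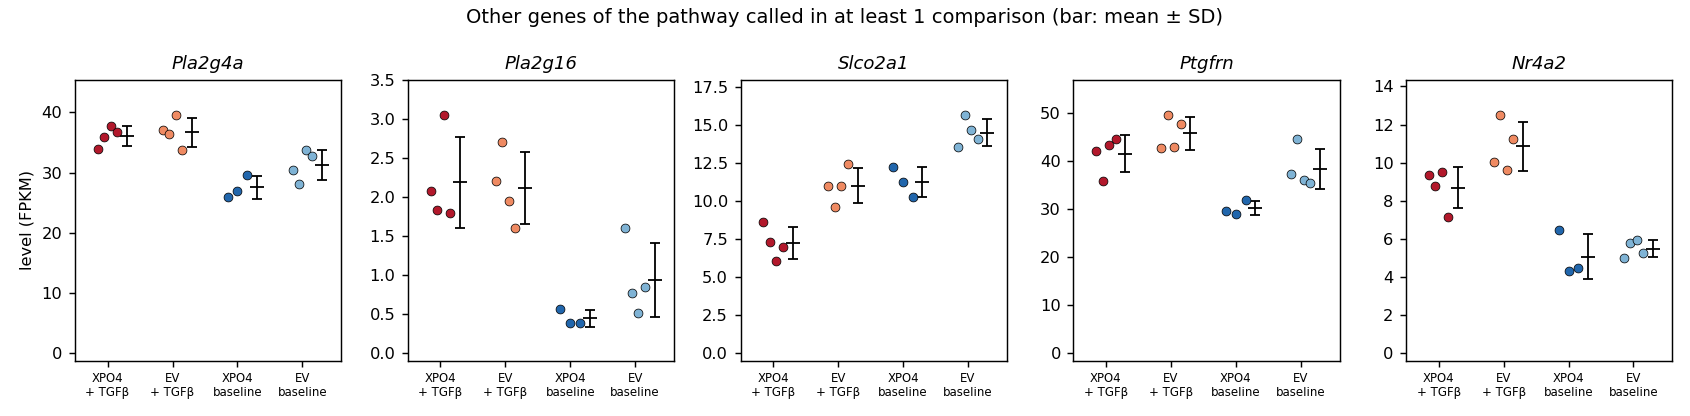
Level in FPKM (vertical axes, linear and separate for each gene) in each library (points), with the mean ± SD of each group beside them, of the 5 other pathway genes called in at least 1 comparison. Slco2a1 was lowest in XPO4 cells with TGFβ, at 6.08 to 8.65 FPKM, and highest in empty-vector cells at baseline, at 13.6 to 15.6 FPKM.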

How the data were processed

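The deposited values are FPKM, which the authors computed from poly(A)-selected, dUTP strand-specific RNA libraries per the labels' protocols. CASAVA 1.8.2, STAR 2.7.2b and the builds mm10 and GRCh38 are named in the submitters' processing notes with no role. No source used here names the program that computed FPKM. Groups and replicate numbers come from the library titles. Differences were tested on log2(FPKM + 1) with limma 3.58.1 (intensity trend) in R 4.3.3, on genes averaging 1 FPKM or more across a fit's libraries, with Benjamini-Hochberg adjustment over all of them and a threshold of 0.05. XPO4 effects were fitted within each table, and TGFβ effects and the interaction on all 15 libraries. The fits were tried on simulated data. Positions are from GENCODE M21 (mm10). Figures used Python 3.11.15 and matplotlib 3.10.9. The members and lists were chosen with earlier results of these data known. The rule for named genes took the members, Xpo4, list genes called in any comparison and, for each called member, the 3 genes most correlated with it. One result on overlapping annotation is not reported here. Alternatives are in the closing section.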

Additional observations from a re-analysis of the deposited data

How the results depend on the processing

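The alternatives were pseudocounts of 0.1 and 0.5, no filter, a minimum of 5 FPKM, no trend, the TPM scale, quantile normalization, a replicate block, a library set block (replicates 0 and 1 against 2 and 3), all libraries in 1 fit, and each library left out. Of 107 counts of called members under them 106 were unchanged, and of 744 member differences 743 kept their side of the threshold. The exception was Ptgs2 for XPO4 at baseline, where leaving out single libraries gave 0 to 1 called members, with 1 (Ptgs2, difference 0.40) without empty-vector library 2. Ptgs2 with TGFβ stayed between 0.77 and 0.95 in XPO4 cells and between 0.83 and 0.96 in empty-vector cells under all 24 alternatives each. These and the totals above include fits without a library of the other construct. Such fits cannot move a TGFβ difference, only its p-value, so they are no check of its size. The totals also count the interaction, where no setting called more than 1 of all genes, and members far from the threshold. Many of the values counted could thus hardly change. For the pathway lists the alternatives were chosen after seeing the data. Leaving out single libraries gave 0 to 2 called genes of arachidonic acid release and 0 to 2 of the other prostanoid list for TGFβ in XPO4 cells, 0 to 1 of the other prostanoid list for XPO4 with TGFβ, 0 to 1 cAMP-responsive genes for TGFβ in XPO4 cells, and 0 to 1 for XPO4 with TGFβ. With a minimum of 5 FPKM, 1 gene of arachidonic acid release was called for TGFβ in XPO4 cells, where Pla2g16 was not tested. For XPO4 with TGFβ the other prostanoid list had 0 calls with no filter, with the replicate block and with the library set block, and 1 cAMP-responsive gene was called on the TPM scale and with all libraries in 1 fit. On the TPM scale 1 lipoxygenase gene was called for TGFβ in empty-vector cells. That scale let more genes pass the minimum (12945 tested against 11951), so this call is no support for the list. The cause of these changes was not tested.

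The replicate block left 1 call in the other prostanoid list for TGFβ in XPO4 cells and gave Ptgs2 0.92 in XPO4 cells and 0.88 in empty-vector cells for TGFβ, and 0.32 with TGFβ and 0.27 at baseline for XPO4 (limma adjusted p = 0.000408, 0.000333, 0.131 and 0.363). Over all genes the block gave 224 called for XPO4 at baseline, against 443 without it. Deviations of same-numbered libraries from their group means correlated between -0.149 and 0.245. Each library of 1 group in a comparison was also matched to its best correlated library of the other group. Of these 15 matches, which count some libraries more than once, 6 were to the same number. XPO4 TGFβ library 3 had no same-numbered XPO4 library at baseline. Depth is known only in relative terms, so values near 0 FPKM, as for Ptges, Hpgd and Ptger2, set no limit on low expression.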
